A study of Arabidopsis thaliana with 4 samples.

Results

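Leaf senescence genes were followed here through 4 transcription factors of the WRKY family, WRKY53 (AT4G23810, probe set 254231_at), WRKY6 (AT1G62300, 264746_at), WRKY47 (AT4G01720, 255596_at) and WRKY20 (AT4G26640, 253983_at), and through SAG101 (AT5G14930, 246600_at). The 5 genes were taken by name from the probe-set annotation, and each had 1 probe set with a single gene. All 5 passed the filter on dim signals, among 13604 probe sets tested in all. The study hybridised RNA from whole plants of Arabidopsis thaliana to 4 Affymetrix arrays of 1 colour each. In the ppi2 group, mutant plants were 20 days old on 2 arrays, and in the wild-type group plants were 10 days old on 2 arrays, both without treatment. In ppi2 an insertion disrupts TOC159, through which chloroplasts take up precursor proteins, so genotype and age changed together and cannot be told apart. The plants were grown on agar plates in long days. Arrays of a group are labelled as biological replicates, with no word on separate cultures, so a p-value reflects the spread among these arrays, which may be technical.

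WRKY proteins are plant transcription factors named after a conserved amino acid motif in their DNA-binding domain, which recognises the W-box element of many defence and senescence promoters. They form a large family whose members often regulate their own and one another's genes. WRKY53 is known in Arabidopsis as an early positive regulator of leaf senescence, and WRKY6 is induced in senescing leaves and by pathogens. SAG101 was first described as a gene active in ageing leaves and encodes a lipase-like protein that acts with EDS1 in immune signalling. In bulk RNA, fewer cells of a type and less RNA per cell cannot be told apart.

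The arrays did not group by label. Across the 13604 probe sets, the highest correlations were between ppi2 replicate 1 and wild-type replicate 2 (r = 0.981) and between ppi2 replicate 2 and wild-type replicate 1 (r = 0.953). The remaining 4 pairs of arrays lay at r = 0.798 to 0.823. These are correlations across genes, which are not independent replicates. No single-gene probe set was assigned to TOC159, so the labels were not checked by the mutated gene, and every array is named by its label below. Whether the arrays of 1 replicate number carry each other's label was not tested. If they did, the opposite differences within the replicate numbers given below would share a sign once relabelled, and the labelled comparison as run would cancel them. Because of this, each gene is given array by array, and results of the labelled comparison are also given without each array. Of 23 marker genes of tissues, 5 were measured. The leaf genes among them were RCA and LHCB4.2. RCA, the activase of Rubisco, was bright on every array, at 12918 and 20244 in ppi2 plants, against a signal of 16455 and 13709 in wild-type plants. LHCB4.2, an antenna protein of photosystem II, read 841 and 29459 in ppi2 plants, against 30097 and 714 in wild-type plants, so it was low on 1 array of each group.

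WRKY53 had the widest differences between arrays of the 5 genes. Its MAS5 signal, a linear brightness in arbitrary units, was 2100.1 and 245 on ppi2 replicates 1 and 2, and 209 and 2087 on wild-type replicates 1 and 2. Both groups thus held 1 high and 1 low array, and their ranges overlapped almost fully. The group means were 1172 ± 1312 in ppi2 plants and 1148 ± 1327 in wild-type plants (SD, n = 2 each). Within replicate number 1 the signal was 9.70-fold higher on the ppi2 array, a log2 difference of 3.28. Within replicate number 2 it was lower on the ppi2 array, at 0.121 of the wild-type level, a log2 difference of -3.05. All fold and log2 differences were taken after adding a pseudocount of 7.99 to each signal. With 1 array on each side, neither difference has an error or a test. The labels do not say that arrays of the same number were handled together, so these are not matched contrasts.

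SAG101 was high and low on the same arrays as WRKY53, at a smaller size. Its signal was 512 and 163 in ppi2 plants, against 176 and 632 in wild-type plants, replicate 1 first in both groups. The high arrays were again ppi2 replicate 1 and wild-type replicate 2, and the groups overlapped. Their means were 338 ± 247 in ppi2 plants and 404 ± 323 in wild-type plants (SD, n = 2 each). The log2 difference between ppi2 and wild type was 1.50 within replicate number 1 and -1.90 within replicate number 2.

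WRKY6 departed from that pattern on the ppi2 arrays. Its signal was 358 and 309 on the ppi2 arrays, which lay close together, and 144 and 468 on the wild-type arrays, which differed widely. The means were 334 ± 34.4 in ppi2 plants and 306 ± 229 in wild-type plants (SD, n = 2 each). Both ppi2 values lay inside the range of the wild-type values. Within replicate number 1 the ppi2 array was 2.41-fold higher (log2 difference 1.27), and within number 2 it was lower, by a log2 difference of -0.58.

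WRKY47, which belongs to the same subgroup of the family as WRKY6, varied less. Its signal was 261 and 149.6 in ppi2 plants, against 200.2 and 312 in wild-type plants. The high arrays were those on which WRKY53 and SAG101 were high, and the groups overlapped, with means of 205 ± 78.9 in ppi2 plants and 256 ± 79.1 in wild-type plants (SD, n = 2 each). The log2 difference was 0.37 within replicate number 1 and -1.02 within number 2, so it was past 2-fold only in the second.

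WRKY20, a family member with a pair of WRKY domains, was nearly level and ran the other way. Its signal was 522 and 622 in ppi2 plants, against 642 and 527 in wild-type plants. The means were 572 ± 70.2 in ppi2 plants and 584 ± 81.8 in wild-type plants (SD, n = 2 each), with overlapping groups. The highest array exceeded the lowest by 1.23-fold, and the log2 differences were -0.29 within replicate number 1 and 0.24 within number 2. Of all tested probe sets, 10.2% spanned a smaller range over the 4 arrays.

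**Figure D1:**
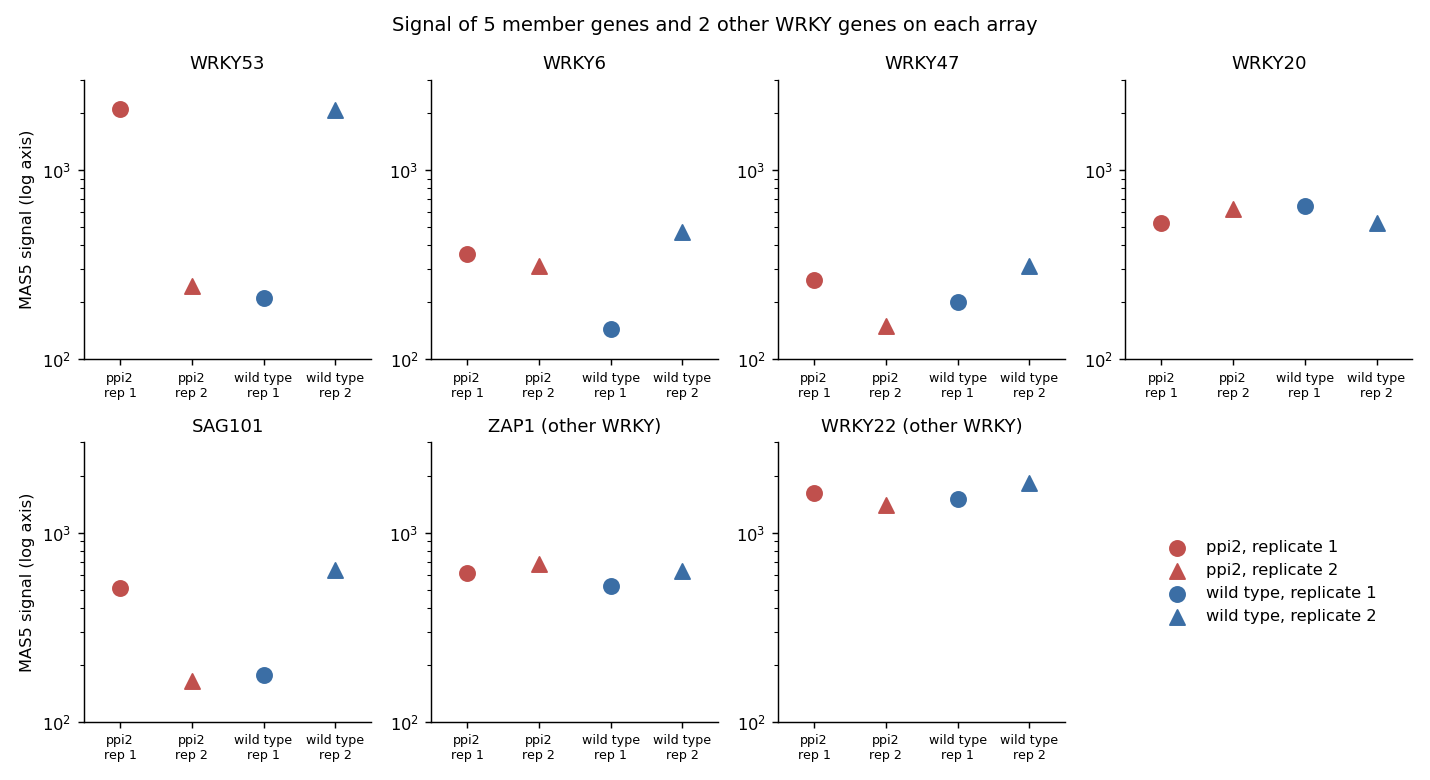
MAS5 signal (logarithmic axis) on each of the 4 arrays, 1 panel per gene, with ppi2 arrays in red left of wild-type arrays in blue, circles for replicate 1 and triangles for replicate 2. WRKY53 and SAG101 are high on ppi2 replicate 1 and wild-type replicate 2 and low on the others, while WRKY20 and the other WRKY genes ZAP1 and WRKY22 are nearly level.

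In the labelled comparison of ppi2 with wild type, limma with Benjamini-Hochberg adjustment called 0 of the 5 genes and 0 of the 13604 probe sets (0%). Without adjustment, 8 probe sets (0.0588%) had p under 0.05, and no member was among them. The labelled log2 difference of WRKY53 was 0.11, with a 95% interval from -3.85 to 4.07. For SAG101 it was -0.20 (-2.41 to 2.01). These intervals include differences larger than 4-fold in either direction, so the comparison does not show that the genes were alike in the groups. WRKY6 had a labelled difference of 0.34 (-1.27 to 1.95) and WRKY47 one of -0.33 (-1.51 to 0.85). The narrowest interval was that of WRKY20, at -0.03 (-0.77 to 0.71). The adjusted p was 0.99997 for each of the 5 genes in limma.

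The direction of the labelled difference depended on which array was left out. For WRKY53 the log2 difference was -1.42 without ppi2 replicate 1 and -1.52 without wild-type replicate 1, and reached 1.75 without wild-type replicate 2. For SAG101 it was 0.60 without ppi2 replicate 2 and 0.70 without wild-type replicate 2, and as low as -1.10 in the other fits. WRKY6 became lower in ppi2 (-0.48) without wild-type replicate 1. WRKY47 became 0.06 without ppi2 replicate 2. WRKY20 became 0.10 without ppi2 replicate 1, and 0.11 when wild-type replicate 1 was omitted. In such a fit 1 group has a single array, whose spread is taken from the rest, and none passed the threshold.

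**Figure D2:**
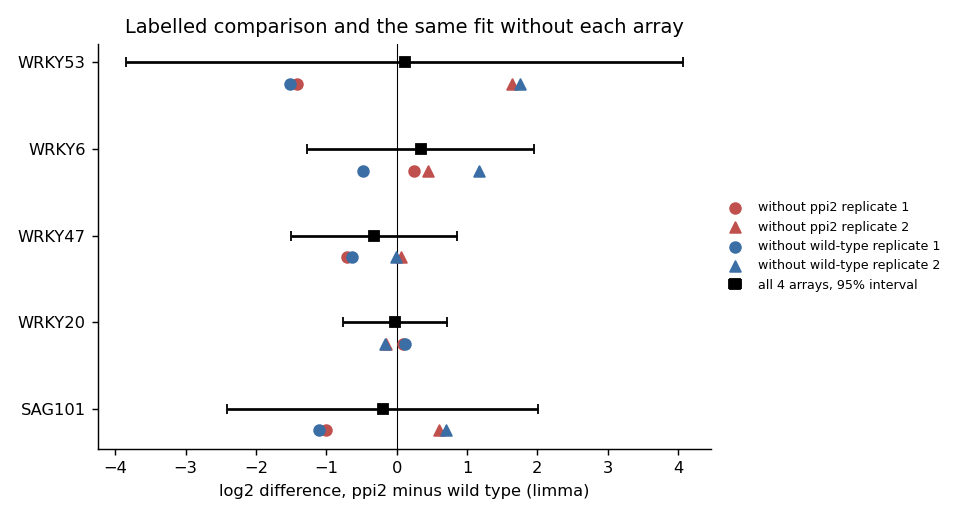
Log2 difference between ppi2 and wild type (horizontal axis) for each gene in the limma fit, with black squares and 95% intervals for all 4 arrays and coloured points for the fits without 1 array. For WRKY53 and SAG101 the points fall on both sides of 0, between -1.52 and 1.75 and between -1.10 and 0.70.

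All 5 genes pointed one way in replicate number 1 and the other way in number 2, as did 77.9% of all tested probe sets. WRKY53, SAG101, WRKY6 and WRKY47 were higher in number 1 and lower in number 2 on the ppi2 arrays, an order seen in 41.1% of probe sets. WRKY20 was lower and then higher, as were 36.8%. WRKY53 and SAG101, 2 of the 5 genes, were higher in number 1 and lower in number 2 by at least 2-fold each, against 5.76% of all probe sets. Within number 1 alone, 3 of the 5 (WRKY53, SAG101 and WRKY6) were at least 2-fold higher on the ppi2 array, against 10.1% of all probe sets. Within number 2 alone, 3 (WRKY53, SAG101 and WRKY47) were at least 2-fold lower, against 8.67%. In the reverse directions, none of the 5 was 2-fold lower in number 1 (10.9% of all probe sets), 2-fold higher in number 2 (9.59%) or both (7.14%), and none had the same sign in both numbers (22.1%). The ranges of the groups overlapped for all 5 genes, and among all probe sets they did not overlap for 14.3%. Median log2 differences of the 5 genes were 1.27 and -1.02, and those of all probe sets 0.02 and -0.05. The members were named with such values of WRKY53 and SAG101 already known, so these counts are descriptions.

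WRKY53 lay near the end of the distribution of all probe sets in both replicate numbers. By the smaller of its difference in number 1 and its opposite difference in number 2 it ranked 38 among 13604 probe sets, and SAG101 ranked 332. WRKY6 ranked 1792 and WRKY47 ranked 2835. The absolute difference of WRKY53 exceeded that of 98.9% of probe sets in number 1 and 98.8% in number 2. For SAG101 these shares were 90.6% and 95.6%, and for WRKY20 32.7% and 29.4%. Values of WRKY53 and SAG101 were known when the members were named, so their ranks and shares are descriptions too. The difference between the replicate numbers has 1 array in each cell of the design and was not tested.

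**Figure D3:**
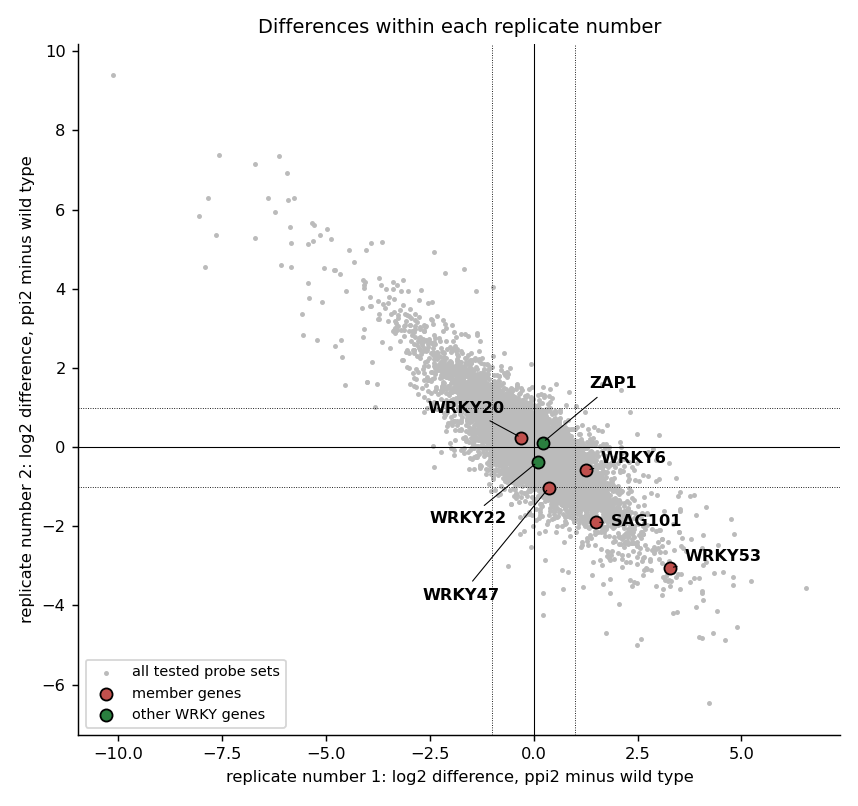
Log2 difference between ppi2 and wild type within replicate number 1 (horizontal axis) and within number 2 (vertical axis) for all tested probe sets (grey), the 5 genes (red) and the other tested WRKY genes (green). Dotted lines mark 2-fold, and WRKY53 lies at 3.28 and -3.05, near the lower right end of the grey cloud.

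Splitting the variation between the 4 arrays into its 3 parts separated WRKY6 from the other members. The parts are ppi2 against wild type, replicate number 1 against 2, and the opposite differences in the 2 numbers. For WRKY53 the opposite differences held 99.8% of the sum of squares on the log2 scale, for WRKY20 98.4%, for SAG101 98.3% and for WRKY47 81.2%. For WRKY6 they held 57.4%, while replicate number held 34.7% and the label 7.85%. Over all tested probe sets the opposite differences held 84.1% of the summed squares, and the median share of a single probe set was 73.1%. WRKY20 had a high share with a range of 1.23-fold.

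**Figure D4:**
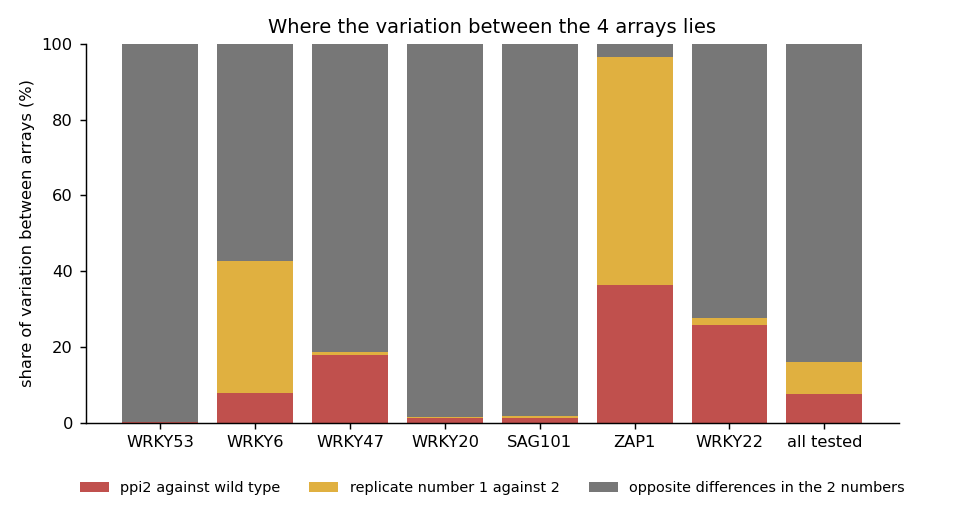
Share of the sum of squares between the 4 arrays (percent of log2 variation, bars from 0 to 100) held by ppi2 against wild type (red), replicate number (yellow) and opposite differences in the 2 numbers (grey). The grey part is 99.8% for WRKY53, 57.4% for WRKY6 and 3.41% for ZAP1.

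Few other WRKY genes could be set beside these. The gene table held 72 WRKY genes, of which 7 had a single-gene probe set in the annotation used and 6 passed the filter. The others tested were WRKY22, a factor of immune signalling also linked to senescence in darkness, and ZAP1, the gene also known as WRKY1. WRKY22 read 1615 and 1407 in ppi2 plants, against 1512 and 1827 in wild-type plants, and its groups overlapped. ZAP1 read 609.9 and 683 in ppi2 plants, against 524 and 630.4 in wild-type plants. Their highest arrays exceeded their lowest by 1.30-fold for both, against 9.70-fold for WRKY53, 3.13-fold for WRKY6 and 2.03-fold for WRKY47, but WRKY20 varied less than either, at 1.23-fold. WRKY22 had log2 differences of 0.09 and -0.37 in replicate numbers 1 and 2, with the signs of WRKY53 at a small size. ZAP1 had 0.22 and 0.11, higher on the ppi2 array in both, and was the 1 tested WRKY gene with the same sign in both numbers. Neither passed in the labelled comparison (limma, adjusted p = 0.99997 for each). WRKY42, of the same subgroup as WRKY6, was under the filter, with signals of 27.7 and 35.5 in ppi2 plants, against 14.2 and 17.0 in wild-type plants. Its log2 differences were 0.68 and 0.80, so it also had the same sign in both numbers, at dim signals that were not tested. With 2 other WRKY genes tested, whether the members differ from the rest of the family was not tested.

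Of 68 genes on 8 lists around these members, 4 had a single-gene probe set and 2 passed the filter, and 0 passed the limma test in either direction. The lists covered partners of SAG101 and EDS1, regulators of WRKY53, targets of WRKY6, senescence-associated genes, senescence NAC factors, chlorophyll breakdown, a MAP kinase cascade and salicylate defence. PPDK, pyruvate orthophosphate dikinase, which takes part in nitrogen remobilisation from ageing leaves, read 1105 and 632 in ppi2 plants, against 545 and 1213 in wild-type plants. Its log2 differences were 1.01 and -0.93, so its high arrays were those of WRKY53 and SAG101. NOL, a subunit of chlorophyll b reductase, which starts chlorophyll b breakdown, ran the other way. It read 497 and 852 in ppi2 plants, against 752 and 590.4 in wild-type plants, with log2 differences of -0.59 and 0.52. SAG29, a SWEET sugar transporter of ageing leaves, was under the filter at 52.7 and 70.0 in ppi2 plants, against 63.4 and 95.4 in wild-type plants. AT3G48080 (EDS1B), from the list around EDS1, was also under it, at 19.7 and 114 in ppi2 plants, against 85.8 and 4.99 in wild-type plants. The 4.99 lay under the pseudocount of 7.99 as well. A tested probe set that the annotation gives to 2 genes of the same list, and so to neither alone, read 669.9 and 260.2 in ppi2 plants, against 231 and 728 in wild-type plants. Its log2 differences were 1.51 and -1.46, with the signs of SAG101. The senescence genes measured therefore did not share the same signs in the replicate numbers.

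The measured leaf markers ran opposite to WRKY53, lower in replicate number 1 and higher in number 2 on the ppi2 array. This order was seen in 36.8% of all tested probe sets. Of 5 leaf markers 2 were measured, RCA and the antenna gene LHCB4.2, and their summed signal was 13758 and 49703 in ppi2 plants, against 46552 and 14423 in wild-type plants. The difference between arrays in this sum lay mainly in LHCB4.2, given above, since RCA varied less. The 2 measured root markers of 6, EXPA7 and EXPA18, summed to 194 and 234 in ppi2 plants, against 249.6 and 184 in wild-type plants. EXPA18 had log2 differences of -0.57 and 0.42, the signs of the leaf markers. EXPA7, under the filter with a mean signal of 85.2, had 0.09 and 0.22. FAMA, the 1 measured guard cell marker of 2, read 310.4 and 249 in ppi2 plants, against 174 and 191 in wild-type plants. Its log2 differences were 0.81 and 0.37, and its groups did not overlap. The same sign in both numbers was seen in 22.1% of all tested probe sets, and groups without overlap in 14.3%. No marker was at 0, and the phloem, epidermis, flower and seed markers had no single-gene probe set here. The part of these tissues in the WRKY and SAG101 values was not tested.

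The profiles of the members were compared by the Euclidean distance between log2 values centred on each gene's mean over the 4 arrays. WRKY53 lay nearest to SAG101 among the members (distance 1.50), with 2.25% of all tested probe sets nearer still. WRKY53 and WRKY20 were farthest apart (3.43). WRKY6 and WRKY47, of one subgroup, were 1.07 apart, and 29.9% of probe sets lay nearer to WRKY6 than WRKY47 did. WRKY47 was slightly nearer to WRKY20 (1.01) and to SAG101 (1.03) than to WRKY6. Even so, 60.4% of probe sets lay nearer to WRKY47 than WRKY20 did, and 61.8% nearer than SAG101 did. The distance also depends on the size of the differences, and WRKY20 was nearly level with signs opposite to those of WRKY47. A short distance is thus no sign of a shared direction. Among all named genes the nearest to WRKY53 was AT1G11960 (distance 0.13), with 2944 and 303 in ppi2 plants, against 280.0 and 2747 in wild-type plants. AT5G13200 and AT5G48430 followed at 0.18 and 0.22. SAG101 was most like AT1G11670 (0.09), which read 2017 and 630.4 in ppi2 plants, against 684 and 2271 in wild-type plants. The nearest to WRKY6 was AT4G34290 (0.14), at 737 and 613 in ppi2 plants, against 314 and 874 in wild-type plants, so its ppi2 arrays were also close together. The nearest to WRKY47 was AT1G51310 (0.05) and to WRKY20 AT4G30680 (0.03). The tables used give no symbol for these genes, and likeness over 4 arrays is a description of these arrays.

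**Figure D5:**
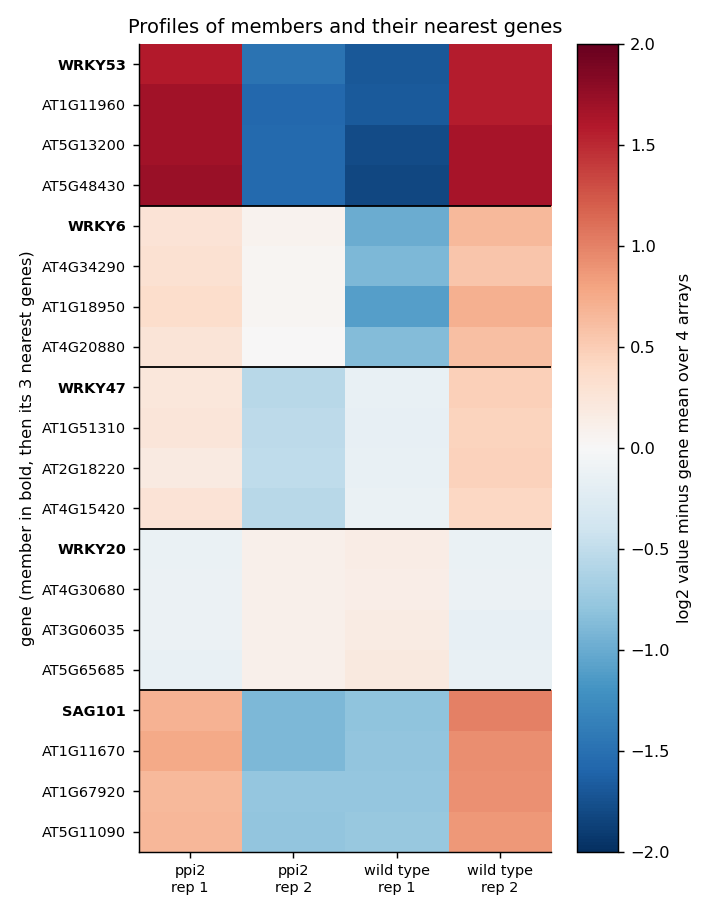
Log2 value minus the gene's mean over the 4 arrays (colour, red above and blue below) for each of the 5 genes (bold) and its 3 nearest named genes, with ppi2 arrays left of wild-type arrays. The blocks of WRKY53 and SAG101 are red on ppi2 replicate 1 and wild-type replicate 2, and the block of WRKY6 is darkest blue on wild-type replicate 1.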

How the data were processed

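The authors deposited 1 signal intensity per probe set, linear and computed with MAS5 per the submitters' processing notes. For the MAS5 run, neither version nor target value was given in the sources used here. With control probe sets included, the 2% trimmed mean was 500.04 on each array, as scaling to a target of 500 would give. The 2% trimmed means of the arrays lay within 0.407% of each other without the 64 control probe sets, so no further scaling was applied. Of 22810 probe sets, the annotation gave 1 gene to 13513, several to 503 and none to 8794. Control probe sets, 157 dimmer probe sets of a gene and 8985 whose mean signal fell short of 124 (40th percentile) were dropped. A pseudocount of 7.99, the 10th percentile of signals, preceded log2, which understates differences of dim probe sets. Labelled groups were tested in R 4.3.3 by limma 3.58.1 (lmFit, eBayes with a mean-variance trend, group only, two-sided, Benjamini-Hochberg over 13604 probe sets, threshold 0.05), with 2 residual degrees of freedom. The steps were run on simulated data with independent noise and differences along the labels. Those data lacked the likeness between arrays of unlike label seen here, so they do not show how the fit performs on these arrays. No detection calls were used, and 2 arrays per group limit the precision.

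Symbols came from a RefSeq gene table of TAIR10.1, used for names and gene order. Named genes were the members, the other WRKY genes, the measured genes of the lists (up to 4 per list) and the 3 genes nearest to each member by profile, all plotted and 1 to 3 named in the text. The members and lists were chosen with earlier results of these data known. Deviations of same-numbered arrays from their group means correlated at -0.818, so the numbers were not taken as pairs in the main fit. Differences within a replicate number are descriptions. Alternatives were quantile normalization, other pseudocounts and filters, no variance trend, a replicate block and leaving out each array. Plots used Python 3.11.15 and matplotlib 3.10.9.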

Additional observations from a re-analysis of the deposited data

How the results depend on the processing

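In limma, 0 probe sets passed the threshold under every alternative run, including the replicate number as a block. With crossed numbers as a block, chosen after the data were seen, it was also 0. The unadjusted limma p was under 0.05 for 554 of 13604 probe sets in that fit. It was so for 8 in the fit without a block and 0 with the replicate block. Each count is below the share of 0.05 expected where nothing differs, so 554 is not read as differences found. With 1 array of each group in each replicate number, the replicate block cannot change the labelled log2 differences. They stayed at 0.11 for WRKY53, 0.34 for WRKY6, -0.33 for WRKY47, -0.03 for WRKY20 and -0.20 for SAG101, and no call changed. Apart from leaving out arrays, all 33 recomputed labelled differences kept their direction, from 0.098 to 0.164 for WRKY53. The filters and the variance trend cannot change these values either. Only quantile normalization and the other pseudocounts could have turned a direction, so the count of 33 overstates what was checked. Leaving out 1 array gave -1.521 to 1.747 for WRKY53, -0.481 to 1.167 for WRKY6, -0.712 to 0.060 for WRKY47, -0.170 to 0.112 for WRKY20 and -1.100 to 0.701 for SAG101, and 8 of these 20 values changed sign, since each such fit drops 1 of 2 arrays of a group. The 30 recomputed differences within a replicate number kept their sign and stayed within 1.5 times, from 3.073 to 3.348 and from -3.088 to -2.878 for WRKY53. The filter at the 60th percentile removed WRKY6 and WRKY47. Of the other WRKY genes tested, 1 was opposite in the replicate numbers under every setting run. Keeping probe sets shared by several WRKY genes gave no value, since 0 shared probe sets had WRKY in their listed names. A WRKY gene listed there only by its locus or another symbol would be missed. Dim signals near background, without detection calls, limit what is shown for WRKY42, SAG29, EXPA7 and AT3G48080.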

Other observations

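The genes in this part were picked after their values were seen, apart from the chromosomal neighbours. Immune genes measured on these arrays did not all have the same signs in the replicate numbers. PUB22 and PUB23, ubiquitin ligases that dampen immune responses, had the signs of WRKY53 in both replicate numbers. PUB23 read 4945 and 1632 in ppi2 plants, against 1828 and 4846 in wild-type plants, and PUB22 read 1608 and 639 in ppi2 plants, against 802 and 1566 in wild-type plants. PUB24, the third ligase of that group, read 559 and 274 in ppi2 plants, against 399.8 and 535 in wild-type plants. The 8 tested genes named PUB include these ligases. Of the 8, 5 were higher in replicate number 1 and lower in number 2, against 41.1% of all probe sets. The other way round were 2, against 36.8%. By at least 2-fold in both numbers, 1 was higher and then lower, against 5.76%. Median log2 differences of the 8 were 0.31 and -0.55, against 0.02 and -0.05 for all probe sets. BIK1, a kinase of pattern-triggered immunity, read 1220.2 and 682 in ppi2 plants, against 745 and 1389 in wild-type plants. EIN3, an ethylene transcription factor that promotes leaf senescence, read 2542 and 1915 in ppi2 plants, against 1664 and 2312 in wild-type plants, with log2 differences of 0.61 and -0.27.

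CSA1, an immune receptor of the TIR class whose signalling needs EDS1, ran opposite to SAG101. It read 3.23 and 362 in ppi2 plants, against 473 and 2.58 in wild-type plants, so both low values lay under the pseudocount of 7.99. No fold is given, since the pseudocount sets the size of a difference from such values.

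The nearest tested genes on either side of each member were compared with it, 10 in all, of which 7 were directly adjacent among protein-coding genes. All 10 had signs opposite to those of their member in both replicate numbers. Of these, 8 were lower in number 1 and higher in number 2 on the ppi2 array, as were 36.8% of all probe sets, and 2 were higher and then lower, as were 41.1%. The 3xHMG-box2 gene beside WRKY53 read 476 and 842 in ppi2 plants, against 1023 and 559.7 in wild-type plants. The WRKY53 neighbour on the other side, AT4G23820, read 1324 and 1871 in ppi2 plants, against 1418 and 1736 in wild-type plants, with log2 differences of -0.10 and 0.11. The widest difference among the neighbours was that of AT4G01730 beside WRKY47, at 70.0 and 216 in ppi2 plants, against 264 and 66.8 in wild-type plants. Some of these differences were small, such as 0.47 and -0.05 for AT4G26620 beside WRKY20 and -0.14 and 0.06 for AT5G14940 beside SAG101. Genes are not independent replicates, and this count was not tested.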
